A study of Homo sapiens with 4 samples.

Results

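Macroautophagy encloses cytoplasm in a double membrane, the autophagosome, which then fuses with a lysosome. The 40 genes described here encode the core of that machinery and form a named list, grouped by the step in which each protein acts. The rule for membership is the list itself and sets no limit on a measured value, but the list was drawn up with earlier results of these data known. There were 5 genes of the ULK kinase complex, which starts the process, and 8 of the class III PI3K (phosphatidylinositol 3-kinase) complexes with their regulators, which mark the forming membrane with a lipid. A further 11 encode the ATG9, ATG2 and WIPI proteins and other proteins of the site where the membrane grows, 12 belong to the conjugation systems that attach ubiquitin-like proteins to it, and 4 act in fusion with the lysosome. All 40 were found among the 34080 genes with a matched transcript, and 39 of them were among the 13569 genes that could be tested.

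HK-2, an immortalised human line from the renal proximal tubule, carried a Tet-On construct for HA-tagged PRCC-TFE3. This chimeric transcription factor drives a subset of renal cell carcinomas and keeps the DNA-binding part of TFE3. All libraries came from this inducible line, grown for 24 h either without doxycycline, Doxy(-), or with 0.2 microg/ml of it, Doxy(+), and poly(A) RNA was sequenced from 2 libraries in each condition, numbered 1 and 2. The comparison asks what the cells' transcripts did when the fusion was switched on. A culture without the transgene was not analysed here, so the effects of doxycycline and of PRCC-TFE3 cannot be told apart, and no label states that the 2 libraries of a condition are separate cultures, so the p-values then measure only the spread between these libraries.

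TFE3 and its relatives MITF and TFEB are basic helix-loop-helix leucine zipper proteins that bind E-box motifs, in particular those with a T before CACGTG, and are known as activators of lysosomal and autophagy genes. In renal tubule cells, which take up and degrade large amounts of protein, basal autophagy removes damaged organelles. The kinase complexes act early and are regulated to a large degree at the protein level by nutrient signals, which RNA counts do not show.

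Gene counts summed to between 12654233 and 15012743 per library. TFE3, whose count can include reads of the TFE3 part of the chimeric transcript, had 66.9 and 69.0 CPM (reads of the gene per 1000000) without doxycycline, against 367 and 322 CPM with it. PAX8, a renal epithelial transcription factor, was at 565 to 605 CPM in all 4, whereas of the proximal tubule genes LRP2, AQP1 and ANPEP were at 0 to 0.233 CPM and GGT1 at 68.7 to 86.1 CPM. Among the other renal epithelial genes listed, PAX2 was at 0 to 0.0777 CPM and CUBN at 0.413 to 0.861 CPM. KRT8, KRT18 and EPCAM were at 98.0 to 412 CPM. GGT1 rose by 0.25 on the log2 scale and the tubular cadherin CDH2, at 209 and 213 CPM in Doxy(-), fell by 0.45. The epithelial keratin KRT19 fell by 0.41 on the log2 scale and the brush border gene MME rose by 1.31, and of the markers of other cell types the collagen gene COL1A1 fell by 0.40 and the lysosomal macrophage marker CD68 rose by 0.37, while PTPRC, PECAM1, VWF and PDGFRB, markers of leukocytes, endothelium and mural cells, stayed between 0.0680 and 0.666 CPM. In bulk RNA, fewer cells of a type and less RNA per cell cannot be told apart, and what part these marker differences had in the results on autophagy genes was not tested.

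The core autophagy genes showed small differences in both directions. At an adjusted p under 0.05, 11 of the 39 tested members rose in Doxy(+), where 9.76% of all tested genes were higher, and 4 fell, where 9.53% were lower (19.3% of all genes in either direction). The median log2 fold change of the 39 was 0.11, against 0.00062 over all genes, with a range from -0.45 to 0.67. No member passed the joint limit of an adjusted p under 0.05 and a change of more than 1 on the log2 scale, a limit that 1.50% of genes passed upwards and 0.479% downwards. Both Doxy(+) libraries lay above both Doxy(-) libraries for 21 of the 39 members (31.1% of all tested genes) and below them for 7 (30.0%), and the libraries overlapped for 11.

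The members that rose act at all 5 steps, and those that fell at 3. Of the ULK complex 1 gene rose and 1 fell, of the class III PI3K group 3 rose and none of 8 fell, and of the ATG9, ATG2 and WIPI group 3 rose and 2 fell among 10 tested. In the conjugation systems 2 rose and 1 fell of 12, and in fusion 2 of 4 rose. The median log2 fold changes by step were 0.19, 0.11, -0.03, 0.12 and 0.28 in the same order, each over between 4 and 12 genes. With DESeq2 on the counts, ATG13, ATG14, UVRAG and AMBRA1 did not pass. No rise was then called in the ULK complex or the class III PI3K group.

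The count of calls rests in part on single libraries and on the unit tested. Without Doxy(+) replicate 2, 5 members rose and 1 fell, as 686 of 13930 genes were higher and 642 lower. Without Doxy(+) replicate 1, 8 rose and none fell, as 647 of 13956 genes were higher and 565 lower. On log2(TPM + 1) with limma 3 rose and none fell, with 590 of 13496 genes higher and 303 lower, and with DESeq2 on the counts 7 rose and 4 fell, with 1077 of 13797 genes higher and 1185 lower. The calls over all genes therefore also became fewer in each of these settings. Of the 15 called members, 3 kept their call under each of the 15 alternatives run, TP53INP2, ZFYVE1 and EPG5, and none changed direction under any of them.

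**Figure D1:**
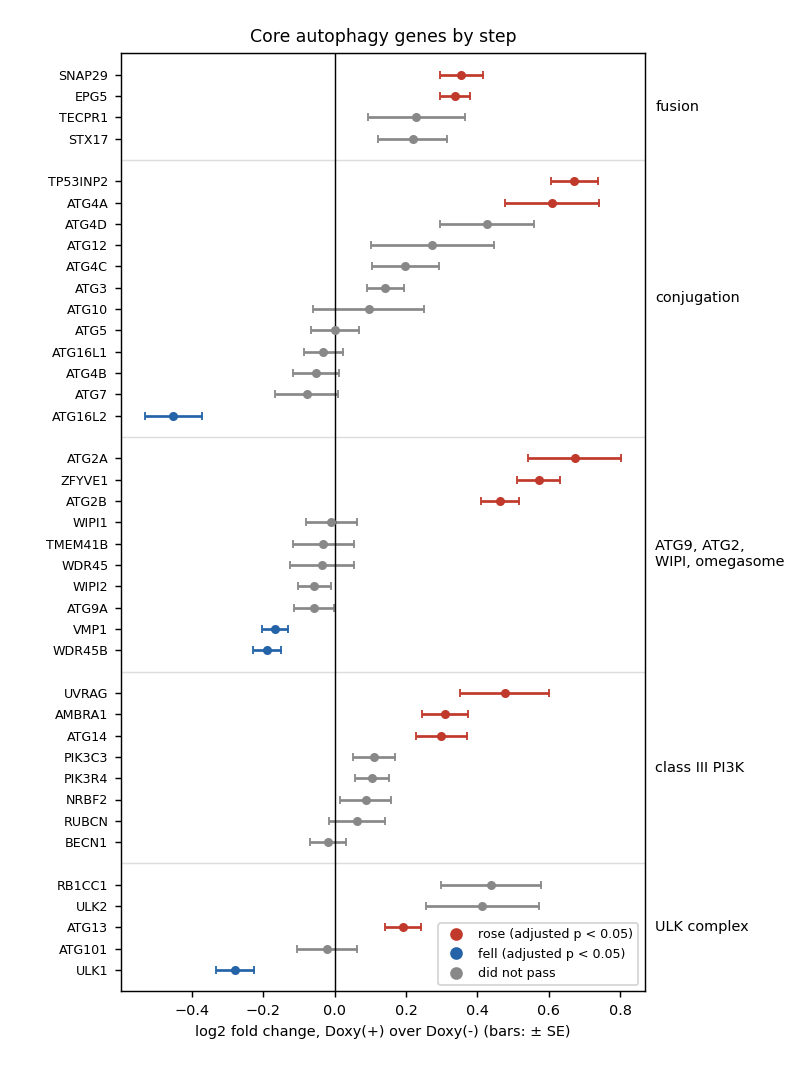
Log2 fold change of Doxy(+) over Doxy(-) for the 39 tested members, grouped by step, with bars of 1 SE on each side from the fit over all genes (2 libraries per condition). Red marks the 11 members that rose and blue the 4 that fell at an adjusted p under 0.05. The changes range from -0.45 for ATG16L2 to 0.67 for ATG2A, and the 4 genes of fusion with the lysosome all lie above 0, although TECPR1 was at -0.06 in the test on TPM.

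Since TFE3 binds E-boxes, the stretch from 250 bases before to 50 after each annotated RefSeq start site (GRCh38.p14) was searched on both strands. RefSeq promoters were matched for 34 of the 40 members, 42 promoters in all, and none is shown for ATG4D, EPG5, RB1CC1, STX17, UVRAG and WDR45B. The letters CACGTG occurred in 4 of the 42 promoters (9.52%), as against 9.33% of the promoters of tested genes, 7.26% of all 35116 promoters, and 18% of the promoters of genes that were higher in Doxy(+) at an adjusted p under 0.05. For the members that rose it was 2 of 12 promoters (16.7%). All 4 also held TCACGTG, which contains the first motif and was present in 5.46% of the promoters of tested genes and 14.8% of those of genes higher in Doxy(+). The M-box core CATGTG, a different hexamer that does not contain CACGTG, was in 5 of the 42 (11.9%, against 7.53% for tested genes), none of them of a member that rose or fell. The 4 windows of 60 bases are shown with each CACGTG in capitals, because they are the members in which TFE3's known motif lies in the searched stretch. ATG14 and SNAP29 rose, and ATG3 and NRBF2 did not pass the test.
ATG14 (chr14:55411819-55411878, minus strand, motif 21 bases before the start site): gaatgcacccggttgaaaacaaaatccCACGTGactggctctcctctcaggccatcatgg
SNAP29 (chr22:20858796-20858855, plus strand, motif 184 bases before the start site): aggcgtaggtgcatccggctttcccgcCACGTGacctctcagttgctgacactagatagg
ATG3 (chr3:112561948-112562007, minus strand, motifs 18 bases before and 5 bases after the start site): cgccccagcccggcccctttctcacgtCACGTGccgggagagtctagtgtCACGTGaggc
NRBF2 (chr10:63133078-63133137, plus strand, motif 246 bases before the start site): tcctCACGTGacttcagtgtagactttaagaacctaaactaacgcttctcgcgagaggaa
A match is a description of the letters and not a measured binding site, and binding was not measured in these libraries.

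In the ULK complex, 1 kinase fell and the adaptor rose. ULK1, the serine/threonine kinase that phosphorylates downstream autophagy proteins, was at 67.1 and 69.3 CPM in Doxy(-), against 56.5 and 55.9 CPM in Doxy(+). Both Doxy(+) libraries were lower than both Doxy(-) libraries, and ULK1 fell by 0.28 on the log2 scale (SE 0.053, adjusted p = 0.0163). ATG13, the adaptor that holds the kinase in the complex, rose from 82.6 and 80.6 CPM to 91 and 95.5 CPM, a log2 fold change of 0.19 (SE 0.050, adjusted p = 0.0466), and the conditions did not overlap. The other 3 members did not pass the test. RB1CC1 (FIP200), the large scaffold of the complex, was at 60.1 and 46.1 CPM in Doxy(-), against 78.3 and 65.3 CPM in Doxy(+), with a log2 fold change of 0.44 and an SE of 0.14 (adjusted p = 0.0831). It had the widest spread within Doxy(-) of the 5, with an SD of 9.84 CPM (n = 2). ULK2, the second ULK kinase, was lower than ULK1 throughout, at 5.71 and 5.53 CPM against 7.79 and 7.26 CPM (log2 fold change 0.41, SE 0.16, adjusted p = 0.127), and ATG101, which stabilises ATG13, had a log2 fold change of -0.02. The call for ATG13 was lost when any 1 of the 4 libraries was left out (log2 fold change 0.16 to 0.23, adjusted p 0.0648 to 0.256), that for ULK1 without Doxy(+) replicate 1 or 2 (-0.29 and -0.27, adjusted p = 0.0958 and 0.104), and RB1CC1 passed without Doxy(-) replicate 1 (0.63, adjusted p = 0.00943).

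In the class III PI3K group ATG14, UVRAG and AMBRA1 rose, and the 3 core subunits did not pass the test. BECN1 (Beclin 1), the subunit to which most regulators bind, was at 80.9 and 84.5 CPM in Doxy(-), against 81.0 and 82.3 CPM in Doxy(+), a log2 fold change of -0.02 (SE 0.050, adjusted p = 0.830). The lipid kinase PIK3C3 (VPS34) and its pseudokinase partner PIK3R4 (VPS15) had log2 fold changes of 0.11 and 0.10, both short of the threshold (adjusted p = 0.249 and 0.193). ATG14, which directs the kinase to the autophagosome site, was at 24.3 and 24.1 CPM in Doxy(-), against 30.0 and 29.4 CPM in Doxy(+), and it rose by 0.30 on the log2 scale (SE 0.071, adjusted p = 0.0350). UVRAG, which takes the place of ATG14 in the endosomal complex, went from 12.4 and 12.3 CPM to 15.6 and 18.8 CPM and rose by 0.48 (SE 0.12, adjusted p = 0.0447). AMBRA1, which links Beclin 1 to ULK1 and to ubiquitin ligases, rose from 29.8 and 29.6 CPM to 37.5 and 36.1 CPM, a log2 fold change of 0.31 (SE 0.064, adjusted p = 0.0221). For each of the 3 both Doxy(+) libraries were above both Doxy(-) libraries, which held for 31.1% of all tested genes. RUBCN (Rubicon), an inhibitor of the UVRAG complex, and NRBF2, a subunit of the ATG14 complex, overlapped between the conditions, with log2 fold changes of 0.06 and 0.09. The ratio of UVRAG to ATG14 in TPM (transcripts of the gene per 1000000 transcripts) was 1.49 and 1.29 in Doxy(-), against 1.32 and 1.54 in Doxy(+), which overlapped. The 3 calls depend on single libraries and on the method. ATG14 did not pass without any 1 of the 4 libraries (log2 fold change 0.28 to 0.31). UVRAG did not pass without either Doxy(-) library or Doxy(+) replicate 2 (0.34 to 0.48), nor AMBRA1 without Doxy(+) replicate 1 or 2 (0.28 and 0.34). None of the 3 passed with DESeq2 on the counts or with limma on log2(TPM + 1).

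Both ATG2 genes rose. ATG2A and ATG2B encode rod-shaped proteins that carry lipid from the endoplasmic reticulum into the growing membrane. ATG2A was at 48.8 and 42.1 CPM in Doxy(-), against 63.6 and 81.1 CPM in Doxy(+), the change with the highest estimate among the members, with a log2 fold change of 0.67 (SE 0.13, adjusted p = 0.0174), or 1.59-fold. The 2 Doxy(+) libraries differed more from each other than the 2 Doxy(-) libraries did, but both lay above them. ATG2B had closer replicates, 53.0 and 51.6 CPM against 71.5 and 72.9 CPM, and rose by 0.46 (SE 0.053, adjusted p = 0.00276), or 1.38-fold. Both calls held with any 1 library left out and missed the threshold with limma on log2(TPM + 1) (adjusted p = 0.0804 and 0.209). ATG2B also missed it with length-scaled counts, where ATG2A passed. The TPM ratio of ATG2A to ATG2B was 0.874 and 0.961 in Doxy(-), against 0.866 and 1.40 in Doxy(+), which overlapped.

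ZFYVE1 (DFCP1), which binds the lipid made by the class III PI3K and is the usual marker of the omegasome from which autophagosomes form, was at 43.4 and 40.9 CPM in Doxy(-). In Doxy(+) it was at 61.2 and 64.0 CPM, and it rose by 0.57 on the log2 scale (SE 0.061, adjusted p = 0.00216), or 1.49-fold. The conditions were well separated, and the log2 fold change stayed between 0.53 and 0.70 under all alternatives.

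None of the 4 WIPI genes, whose proteins read the same lipid, rose. WIPI1 was at 31.8 and 34.4 CPM in Doxy(-), against 33.3 and 32.6 CPM in Doxy(+), a log2 fold change of -0.01 (SE 0.071, adjusted p = 0.945), and WIPI2, which recruits ATG16L1, had a log2 fold change of -0.06 (adjusted p = 0.454). WDR45 (WIPI4), which binds ATG2, was at -0.04, and WDR45B (WIPI3) fell by 0.19 (SE 0.040, adjusted p = 0.0230), from 160 and 166 CPM to 144 and 143 CPM. ATG9A, the lipid scramblase of the vesicles that seed the membrane, had a log2 fold change of -0.06 (adjusted p = 0.525). Its paralog ATG9B was barely detected and left out of the test by the low-count filter. Its estimated counts were 2.38 and 0.283 in Doxy(-), under the floor of 3 counts, and 10.1 and 5.59 in Doxy(+), so no fold is given. None of these counts lay on a transcript annotated as protein coding. Noncoding is used here for every transcript not annotated as protein coding, among them targets of nonsense-mediated decay. WDR45B did not pass without Doxy(+) replicate 1 or 2 (-0.20 and -0.18, adjusted p = 0.127 and 0.145). For WDR45, 12 further transcript identifiers of the files were copies of its transcripts and held between 386 and 399 counts per library. With these added no call changed.

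VMP1 and TMEM41B are scramblases of the endoplasmic reticulum that work with ATG2. VMP1 was at 205 and 203 CPM in Doxy(-), against 185 and 178 CPM in Doxy(+), and its summed count fell by 0.17 on the log2 scale (SE 0.037, adjusted p = 0.0274). Most of this sum was assigned to noncoding transcripts. VMP1-217 (chr17:59837931-59842255, plus strand, hg38) and VMP1-205 (chr17:59837951-59841551), both annotated as retained-intron transcripts at the 3′ end of the gene, held 93.4% and 93.9% of its counts in Doxy(-) and 95.4% and 95% in Doxy(+). Both span the hairpin of MIR21 (chr17:59841266-59841337), a microRNA transcribed from the same strand. The 13 transcripts that start in the first part of the gene were at 10.9 and 7.43 CPM in Doxy(-), against 4.01 and 5.29 CPM in Doxy(+), with no overlap. Counted over coding transcripts only, an alternative chosen after seeing the data, VMP1 had a log2 fold change of -1.06 (adjusted p = 0.0496). The summed count did not pass without Doxy(+) replicate 1 or 2 (adjusted p = 0.102 and 0.197). TMEM41B had a log2 fold change of -0.03. Like VMP1, ATG12, ATG16L2 and ATG9B, it had most of its counts in each library on transcripts not annotated as protein coding. For TMEM41B these were mainly TMEM41B-201 and TMEM41B-202, annotated as targets of nonsense-mediated decay.

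**Figure D2:**
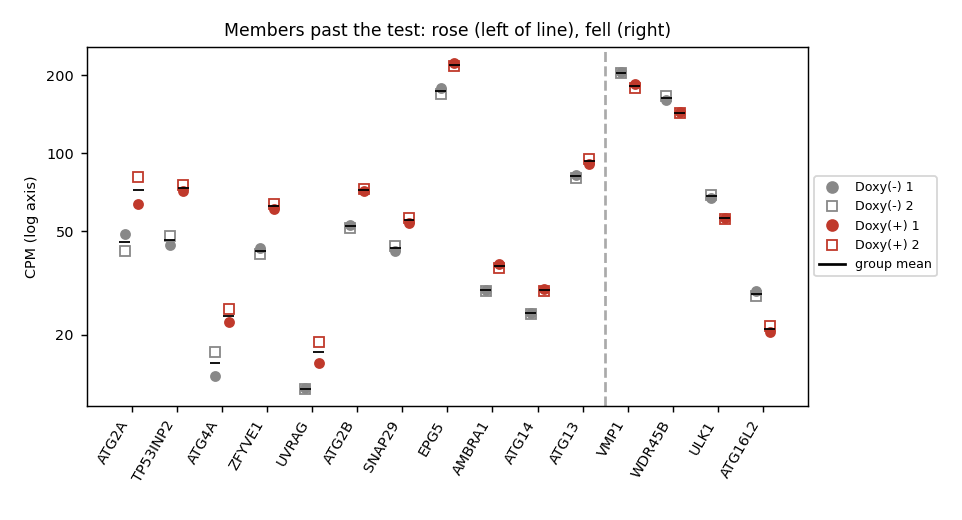
CPM on a log axis of the 15 members past the test, 1 symbol per library (circles replicate 1, squares replicate 2, grey Doxy(-), red Doxy(+)), with a bar at each condition's mean. The 11 members left of the dashed line rose and the 4 right of it fell. In ATG2A and UVRAG the Doxy(+) libraries lie apart from each other (63.6 and 81.1, 15.6 and 18.8 CPM), while EPG5, ATG2B and ZFYVE1 have close replicates.

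The conjugation systems join ATG12 to ATG5 and the LC3 and GABARAP proteins to lipid. The members ATG7, ATG10, ATG3, ATG5 and ATG12, at the centre of both systems, did not pass the test. ATG7, the E1-like enzyme, had a log2 fold change of -0.08, ATG10, the E2-like enzyme for ATG12, 0.10, and ATG5 0.00067 (SE 0.067, adjusted p = 0.997). ATG3, the E2-like enzyme for LC3, was at 78.4 and 79.0 CPM in Doxy(-), against 84.4 and 89.3 CPM in Doxy(+), which did not overlap but missed the threshold (log2 fold change 0.14, adjusted p = 0.113). ATG12 was at 21.1 CPM in both Doxy(-) libraries, 20.8 CPM in Doxy(+) replicate 1 and 30.2 CPM in Doxy(+) replicate 2, so that its log2 fold change of 0.27 (adjusted p = 0.329) rested on 1 library. It was 0.52 (adjusted p = 0.0406) without Doxy(+) replicate 1 and -0.02 without Doxy(+) replicate 2.

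ATG16L1 and ATG16L2 bind ATG12-ATG5, and ATG16L1 is the form that places LC3 lipidation on the membrane. ATG16L1 was at 53.5 and 51.9 CPM in Doxy(-), against 51.6 and 51.5 CPM in Doxy(+) (log2 fold change -0.03, adjusted p = 0.728). ATG16L2 was at 29.4 and 28.2 CPM in Doxy(-) and fell to 20.5 and 21.6 CPM in Doxy(+), by 0.45 on the log2 scale (SE 0.080, adjusted p = 0.0126), the lowest log2 fold change among the members. The call was lost without Doxy(+) replicate 1 (-0.41, adjusted p = 0.0781), and over coding transcripts only the log2 fold change was -0.29 (adjusted p = 0.425). The TPM ratio of ATG16L1 to ATG16L2 was 1.24 and 1.10 in Doxy(-), against 2.12 and 1.47 in Doxy(+).

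The 4 ATG4 genes encode the cysteine proteases that prepare LC3 and GABARAP for conjugation and later remove them from lipid. ATG4A, which acts best on GABARAP proteins, was at 13.8 and 17.2 CPM in Doxy(-), against 22.4 and 25.0 CPM in Doxy(+), and it rose by 0.61 on the log2 scale (SE 0.13, adjusted p = 0.0254), or 1.52-fold. ATG4D was at 7.94 and 8.89 CPM against 11.6 and 11 CPM, with a log2 fold change of 0.43 that missed the threshold (SE 0.13, adjusted p = 0.0731). ATG4C had a log2 fold change of 0.20 (adjusted p = 0.202), and ATG4B, the protease with the broadest activity, one of -0.05 (adjusted p = 0.627). In TPM summed over all transcripts, ATG4B made up 67.7% and 67.3% of the family in Doxy(-) and 63.6% and 61.3% in Doxy(+). ATG4A made up 10.7% and 12.2% against 12.8% and 18.0%. These sums include transcripts not annotated as protein coding, which held most of the ATG4B TPM in each library. Over coding transcripts alone ATG4B was at 23.07 and 15.96 TPM in Doxy(-), against 16.07 and 15.96 TPM in Doxy(+). ATG4C, all of it coding, was at 10.6 and 12.3 TPM against 15.2 and 12.1 TPM. ATG4B was then still the highest of the 4 in each library, but by less. The ATG4A call was lost without Doxy(-) replicate 1 (0.46, adjusted p = 0.0519), Doxy(+) replicate 1 (0.69, adjusted p = 0.0543) or Doxy(+) replicate 2 (0.52, adjusted p = 0.105).

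Single transcripts of ATG4D and ATG4C differed more than their gene sums did. The coding transcript ATG4D-201 was at 1.25 and 2.38 TPM in Doxy(-), against 4.89 and 5.02 TPM in Doxy(+), while ATG4D-204, annotated as a target of nonsense-mediated decay, was at 2.28 and 2.22 TPM against 0.878 and 0.769 TPM. ATG4C-203, also coding, was at 0.00039 and 0.0110 TPM in Doxy(-), against 2.64 and 4.13 TPM in Doxy(+). The coding ATG4C-201, of similar length, went the other way, from 6.75 and 6.74 TPM to 4.77 and 4.41 TPM, and ATG4C as a whole was at 10.6 and 12.3 TPM against 15.2 and 12.1 TPM. These are estimates of how reads shared between transcripts were divided, were picked out after their values were seen, and carry no test.

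TP53INP2 (DOR), a nuclear and autophagosomal protein that binds LC3 and GABARAP and promotes their conjugation, had the lowest adjusted p of the 39 tested members. It was at 44.2 and 48.1 CPM in Doxy(-), against 71.6 and 75.5 CPM in Doxy(+), and it rose by 0.67 on the log2 scale (SE 0.066, adjusted p = 0.00161), or 1.59-fold. In TPM the values were 15.9 and 17.1 against 27.5 and 27.8. All of its counts lay on coding transcripts, and the log2 fold change stayed between 0.61 and 0.74 under all alternatives.

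Of the 4 fusion genes, EPG5 and SNAP29 rose. EPG5, the tether that brings autophagosomes to late endosomes and lysosomes, was at 178 and 169 CPM in Doxy(-), against 223 and 216 CPM in Doxy(+), and it rose by 0.34 on the log2 scale (SE 0.042, adjusted p = 0.0037). SNAP29, a SNARE protein of the fusion complex, went from 42.1 and 44.1 CPM to 53.8 and 56.5 CPM and rose by 0.35 (SE 0.060, adjusted p = 0.0109). STX17, the autophagosomal SNARE that pairs with SNAP29, and TECPR1, a tether that binds ATG12-ATG5, had log2 fold changes of 0.22 and 0.23 and did not pass (adjusted p = 0.175 and 0.301). In all 4 both Doxy(+) libraries lay above both Doxy(-) libraries, which held for 31.1% of all tested genes. For TECPR1, however, the gap was 16.0 against 16.6 CPM and its log2 fold change turned to -0.06 in the test on TPM. SNAP29 did not pass without Doxy(+) replicate 2 (0.32, adjusted p = 0.0786). Of the EPG5 transcripts, EPG5-208, annotated as a target of nonsense-mediated decay, was at 1.39 and 0.963 TPM in Doxy(-), against 5.53 and 3.76 TPM in Doxy(+). The gene totals were 28.8 and 27.7 TPM and 37.3 and 37.2 TPM, and this transcript was picked out after its values were seen.

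Levels between genes were compared in TPM, which is per transcript length. In Doxy(-), VMP1 was highest at 141 ± 0.185 TPM (SD, n = 2), followed by WDR45B at 103 ± 2.16. These sums include transcripts not annotated as protein coding. Over coding transcripts alone VMP1 was at 21.6 and 25.3 TPM and WDR45B at 51.4 and 59.2 TPM, below WIPI2 at 69.7 and 65.2 TPM. ATG3 led the conjugation systems at 94.4 ± 2.63 TPM and BECN1 the class III PI3K group at 83.0 ± 1.13 TPM (SD, n = 2). In the ULK complex ATG13 and ATG101 led at 57.8 ± 5.73 and 53.5 ± 5.44 TPM (SD, n = 2), which overlapped in Doxy(-) but not in Doxy(+), where ATG13 was at 74.7 ± 5.09. ULK1 was at 21.7 TPM and ULK2 at 3.82 TPM in Doxy(-), and their ratio was 9.30 and 4.07 in Doxy(-), against 3.43 and 2.95 in Doxy(+). The 2 Doxy(-) libraries had 2.35 and 5.29 TPM of ULK2 but close CPM, at 5.71 and 5.53. Over coding transcripts alone, ULK2 was at 1.49 and 1.21 TPM in Doxy(-), against 4.40 and 1.31 TPM in Doxy(+), which overlapped. Of the 3 members of the class III PI3K group that rose, UVRAG (10.4 TPM) and AMBRA1 (9.94 TPM) overlapped in Doxy(-), and ATG14 was below both at 7.45 TPM. The values summed over the 4 fusion genes were 84.8 and 90.4 TPM in Doxy(-), against 108 and 114 TPM in Doxy(+), without overlap. Sums of the ULK complex (163 and 145 against 165 and 188 TPM) did not overlap either, but the gap was narrow, at 163.4 against 164.7 TPM. Those of the class III PI3K group (239 and 240 against 256 and 268 TPM) and of conjugation (342 and 347 against 368 and 382 TPM) were also without overlap. Those of the ATG9, ATG2 and WIPI group overlapped, at 479 and 484 against 491 and 473 TPM. They include VMP1, mostly noncoding, at 141 and 141 against 126 and 120 TPM. All step sums include transcripts not annotated as protein coding, and sums over other sets of genes were not computed. As single genes in CPM, 31.1% of all tested genes had both Doxy(+) libraries above both Doxy(-) libraries.

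**Figure D3:**
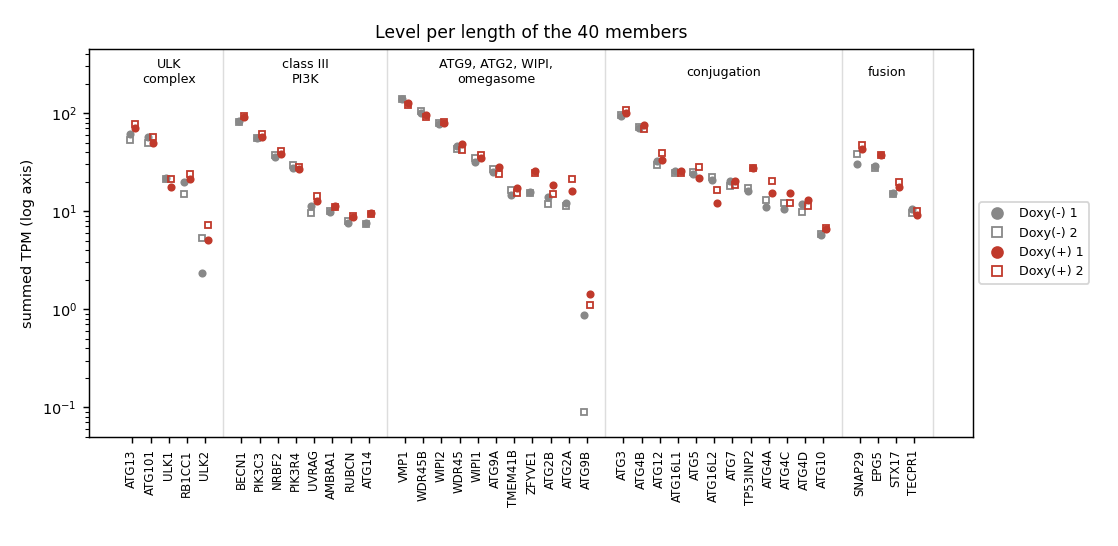
Summed TPM (log axis) of the 40 members in each library, ordered within each step by level (grey Doxy(-), red Doxy(+), circles replicate 1, squares replicate 2). The sums include noncoding transcripts, which make up most of VMP1. In Doxy(-), mean sums run from 141 TPM for VMP1 to 0.481 TPM for ATG9B, and the TP53INP2, ZFYVE1 and ATG2A symbols of Doxy(+) stand above those of Doxy(-).

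Of the 10 pairs of related genes whose TPM ratio was compared, 5 had ratios that did not overlap between the conditions, namely ULK1 to ULK2, ATG9A to ATG9B, ATG4A to ATG4B, ATG4C to ATG4B and ATG16L1 to ATG16L2. With 2 libraries against 2, the two-sided exact permutation test cannot go below p = 0.333, which each of the 5 reached, and the values adjusted over the 10 pairs were 0.666 for these and up to 1 for the rest. Among the 4 of these with both genes above the filter, the ULK1 to ULK2 ratio had the difference of largest size, -0.95 on the log2 scale, and its 2 Doxy(-) values were also far apart, at 3.22 and 2.03.

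Beside the core, 40 other genes of the pathway were listed: the LC3 and GABARAP proteins, cargo receptors, lysosomal tethers and regulators. Of 39 tested, 17 rose and 1 fell, with a median log2 fold change of 0.22, where 9.76% of all tested genes were higher and 9.53% lower and their median was 0.00062. MAP1LC3B, an LC3 protein that the conjugation systems attach to lipid, went from 142 and 137 CPM to 215 and 208 CPM (log2 fold change 0.60, adjusted p = 0.00045), and GABARAP, from the other branch of that family, rose by 0.37 (adjusted p = 0.0032). The rest of the family did not pass. GABARAPL1 was at -0.03 (adjusted p = 0.700), GABARAPL2 at 0.29 (0.0953), MAP1LC3B2 at 0.33 (0.341) and MAP1LC3C at 1.13 (0.110), while MAP1LC3A was too low to test. SQSTM1, the cargo receptor p62, was the 1 listed gene past the joint limit in Doxy(+), at a log2 fold change of 2.05. The gene that fell was YKT6, a SNARE that can act in place of STX17, by 0.15 (adjusted p = 0.0398), and it is named because it was the only one. How far the core and the other genes differ as groups was not tested.

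**Figure D4:**
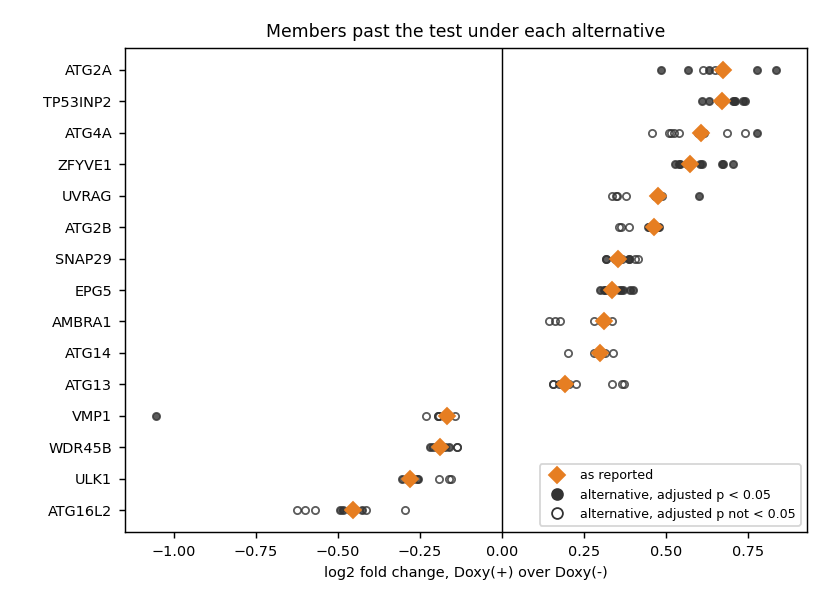
Log2 fold change of each of the 15 called members as reported (orange diamond) and under 15 alternative settings (circles, filled where the adjusted p was under 0.05). No member crosses 0. TP53INP2, ZFYVE1 and EPG5 have only filled circles, and the lone point at -1.06 is VMP1 counted over coding transcripts only.

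Exons of 15 members overlap those of another tested gene, for 14 of them on the opposite strand, and the sources used here do not say whether reads were assigned by strand. Of the called members, ATG13, ATG14, ATG16L2, SNAP29, VMP1 and WDR45B are among these 15. Annotated pseudogenes exist for ATG4A and WDR45B among the called members, and for BECN1, NRBF2, WDR45, ATG3 and ATG12 among the rest, so their counts may include reads of near-identical copies.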

How the data were processed

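Poly(A) RNA of 4 libraries (2 Doxy(-), 2 Doxy(+)) was sequenced after a stranded library preparation. The submitters' processing notes name Trim Galore 0.6.6, cutadapt 2.5, STAR 2.7.9a and hg38. The authors deposited, per Ensembl transcript and library, an estimated count and a TPM value, in columns laid out as kallisto writes them, although the study's methods name RSEM, so the tool behind these values is uncertain. Whether reads were assigned by strand is not given in the sources used here. Of 180253 identifiers 150691 (83.6%) matched GENCODE v44 and were summed per gene, and 9.66% to 9.89% of counts were on unmatched ones. Sums were rounded and tested with edgeR 4.0.16 (TMM, filterByExpr, quasi-likelihood test, condition as the only term), with Benjamini-Hochberg adjustment over 13569 genes. Log2 fold changes are Doxy(+) over Doxy(-), CPM uses TMM-scaled library totals, and the biological coefficient of variation was 6.53%. Counts of the 2 libraries of a condition differed by more than sampling noise (chi-square per degree of freedom 2.91 and 4.03), so none was counted as a repeat deposit. Alternatives used DESeq2 1.42.0 and limma 3.58.1. The script was tested on simulated data. Intervals of counts are not given, since 2 libraries limit precision more than depth does. All 40 members are named, and the members, lists and steps were chosen with earlier results of these data known.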

Additional observations from a re-analysis of the deposited data

How the results depend on the processing

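Precision is limited by 2 libraries per condition, where a residual spread is estimated on 2 degrees of freedom, and by transcript estimates that divide shared reads. Leaving out a library leaves 1 in its condition, which is then assumed to vary like the other condition. ATG9B was too low to test. Over the 15 alternatives of each of 39 members, 457 results kept their direction and side of the threshold, 76 lost and 4 gained the threshold, and 48 changed sign, all 48 in 14 of the 24 members that did not pass the test. The cause of these changes was not tested.

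With 11 members rising in the main analysis, the count was 7 with DESeq2, 3 with limma on log2(TPM + 1) or log2(TPM + 0.1), 4 with length-scaled counts, 7 over coding transcripts only, 4 at an adjusted p under 0.01, and 5 to 8 with 1 library left out. The count falling, 4, was 0 with limma at either pseudocount, 0 with length-scaled counts, 1 over coding transcripts only, 0 at an adjusted p under 0.01, and 0 to 4 with 1 library left out. The count past the joint limit was 0 except over coding transcripts only, where it was 1 (VMP1). Of all genes, 203 were higher and 65 lower past the joint limit, against 122 and 37 with limma on log2(TPM + 1), 35 lower with log2(TPM + 0.1), and 124 and 34 at an adjusted p under 0.01. At an adjusted p under 0.05, 1325 genes were higher and 1293 lower (50.6% higher), against 590 and 303 (66.1%) with limma on log2(TPM + 1) and 567 and 285 (66.5%) on log2(TPM + 0.1). With length-scaled counts 670 of 13621 genes were higher and 576 lower. Over coding transcripts only, 816 of 12238 genes were higher and 780 lower. The share of promoters with CACGTG was 7.26% of all, 9.33% of tested genes, 18% of genes higher in Doxy(+) and 7.65% of genes lower.

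The deviations of same-numbered libraries from their condition means had a correlation of -0.22 over 9609 genes. This cannot decide whether the numbers mark pairs. With 2 libraries per condition the deviations mirror each other, so crossed numbers give the same size with the opposite sign. With the replicate block 10 members rose and 4 fell: RB1CC1 passed (adjusted p = 0.00513), and ATG13 and ATG14 did not (0.0583 and 0.0538). With the numbers crossed in the block, chosen after seeing the data, 9 rose and 4 fell. Of the 13569 tested genes, 1282 were higher and 1261 lower with the replicate block, and 1178 and 1133 with the crossed one.

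On log2(TPM + 1) and log2(TPM + 0.1) the log2 fold changes that changed sign were 0.154 and 0.156 for BECN1, -0.0499 and -0.0514 for PIK3R4, 0.0108 and 0.0111 for ATG9A, 0.111 and 0.114 for WIPI1, 0.0395 and 0.0400 for WIPI2, 0.00961 and 0.00974 for WDR45, 0.0786 and 0.0830 for TMEM41B, 0.0169 and 0.0171 for ATG4B, 0.00169 and 0.00181 for ATG7, -0.0551 and -0.0602 for TECPR1. With length-scaled counts they were 0.119 for BECN1, -0.0893 for PIK3R4, 0.0775 for WIPI1, 0.00320 for WIPI2, 0.0453 for TMEM41B, -0.00844 for ATG5 and -0.0969 for TECPR1. Over coding transcripts only, an alternative chosen after seeing the data, they were 0.0645 for WDR45, -0.0145 for ATG5 and -0.00117 for ATG10. With 1 library left out, the log2 fold change ran from -0.117 (without Doxy(+) 2) to 0.0664 (without Doxy(+) 1) for ATG101, from -0.0536 (without Doxy(-) 1) to 0.0122 (without Doxy(-) 2) for BECN1, from -0.0683 (without Doxy(-) 1) to 0.0490 (without Doxy(-) 2) for WIPI1, from -0.132 (without Doxy(-) 2) to 0.0566 (without Doxy(-) 1) for WDR45, from -0.0993 (without Doxy(-) 1) to 0.0348 (without Doxy(-) 2) for TMEM41B, from -0.117 (without Doxy(-) 1) to 0.0123 (without Doxy(-) 2) for ATG4B, from -0.0709 (without Doxy(+) 2) to 0.0665 (without Doxy(+) 1) for ATG5, from -0.0224 (without Doxy(+) 2) to 0.516 (without Doxy(+) 1) for ATG12. ATG5, at 0.00067 as reported, was also at -0.00202 with RLE size factors, -0.00891 without the low-count filter, -0.00442 with DESeq2, -3.1e-05 with the replicate block and -0.00156 with the crossed one.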
